A study of Homo sapiens with 24 samples.

Results

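The mRNAs described here encode 9 proteins that have been found with IGF2BP1 in messenger ribonucleoprotein (mRNP) complexes: SYNCRIP, HNRNPU, DHX9, YBX1, ELAVL1, STAU1, FMR1, PABPC1 and PABPC4. They were selected by gene symbol, with earlier results of these data known, and each is 1 of 58174 genes listed for the series. The libraries hold total RNA without ribosomal RNA from 4 human tumor cell lines: A549 (lung adenocarcinoma), ES2 (ovarian clear cell carcinoma), MV3 (amelanotic melanoma) and PANC1 (pancreatic ductal adenocarcinoma). Each line gave 3 libraries from cells transfected with control siRNA (siC) and 3 from cells transfected with pooled siRNAs that target IGF2BP1 (siI1), 24 libraries in 8 groups. Cells were harvested 72 h after transfection in A549, ES2 and MV3, and 96 h after it in PANC1. No line carried a stated genetic change, and by the labels both arms of a line differed only in the siRNA, so that a transient and incomplete loss of IGF2BP1 mRNA was compared with its level in control cells.

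IGF2BP1 is an oncofetal RNA-binding protein that packages selected mRNAs into cytoplasmic granules, where it shields them from decay and controls their transport and translation. In these granules it works beside other RNA-binding proteins. SYNCRIP, HNRNPU, DHX9 and YBX1 were purified with it as a complex that stabilizes an mRNA through an element in its coding region. ELAVL1, STAU1 and FMR1 are also known from other transport and stress granules. Poly(A)-binding proteins coat the tails of the mRNAs themselves. The question addressed is whether the mRNAs of these partners changed when IGF2BP1 was lowered, and whether they did so alike in the 4 lines.

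Values are FPKM, that is, reads per kilobase of gene length, scaled by the size of the library, and rest on 3105215 to 20082702 reads assigned to genes per library, with A549 sequenced least deeply and MV3 most. A partner mRNA was covered by 99 (FMR1, ES2) to 30590 reads (YBX1, MV3) in a library, and all 9 passed the filter of a mean of at least 0.5 FPKM in every line. Fold changes are siI1 against siC on the log2(FPKM + 0.5) scale, with limma p-values adjusted by the Benjamini-Hochberg method over all genes tested in a line and a threshold of 0.05. Each line was normalized on its own, so levels of 1 gene in different lines are described without a test. 7SL RNA took 5.23 to 6.25% of the reads in ES2 and 3.98 to 4.98% in A549. In MV3 it took 9.36 to 9.97% in siC and 9.87 to 11.3% in siI1. Protein-coding genes took 86.8 to 87.1% of the MV3 reads in siC and 85.1 to 86.3% in siI1, without overlap. The step was larger in PANC1, from 80.8 to 85.2% in siC to 71.0 to 75.0% in siI1, also without overlap. In PANC1 7SL RNA took 10.2 to 15.4% in siC and 21.3 to 25.6% in siI1, so there its share moved with the knockdown. Its part in the MV3 and PANC1 results below was not tested beyond the rescalings given with them. In bulk RNA, fewer cells that express a gene and less RNA per cell cannot be told apart. Of the markers checked, A549 held 5 of 7 at or above 0.5 FPKM (KRT8, KRT18, KRT19, EPCAM and CDH1) and lacked the lung markers NKX2-1 and SFTPB. ES2 held 2 of 6 at or above that level (KRT8 and KRT18), with PAX8, WT1, MUC16 and EPCAM below it. MV3 held each of 6 melanocyte markers below 0.5 FPKM, while PANC1 held all 6 of its epithelial markers at or above that level. The lowest of these, MUC1, had a mean of 0.650 FPKM with libraries down to 0.247. Of 9 markers of blood and endothelial cells, only CDH5 in ES2 reached 0.5 FPKM, and it stood well above it, at a mean of 12.5 (8.32 to 16.1).

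IGF2BP1 mRNA was lower in every siI1 library than in any siC library of its line. The change of its mean was -75.1% in PANC1, -68.6% in MV3, -68.3% in ES2 and -60.6% in A549. The partner mRNAs moved far less. In A549, 0 of the 9 were lower and 3 were higher (YBX1, PABPC1 and PABPC4), where 7.83% of all 18411 genes tested were lower and 5.93% higher. In ES2, 4 were lower (ELAVL1, SYNCRIP, HNRNPU and DHX9) and 0 higher, against 13% and 10.5% of 16920 genes. In MV3 the same 4 mRNAs were lower and PABPC1 was higher, against 19.5% lower and 16.3% higher of 16380 genes. In PANC1, SYNCRIP, HNRNPU, DHX9 and FMR1 were lower and 0 were higher, against 13.4% and 11.3% of 15846 genes. The median log2 fold change of the 9 was -0.10 in PANC1, -0.12 in MV3, -0.06 in ES2 and 0.04 in A549, beside -0.04, 0.01, -0.02 and -0.01 for all genes tested. SYNCRIP, HNRNPU and DHX9 were lower in 3 lines, and STAU1 passed the threshold in none.

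The scaling of the libraries sets the balance of these calls. Of all genes called, 54.3% were lower in PANC1, 54.5% in MV3 and 55.4% in ES2. With the libraries of a line set to the same sum of FPKM over all genes, the lower share was 98.9% in PANC1 and 44.4% in ES2. In PANC1 the median of all genes then moved from -0.04 to -0.68. With the read total over protein-coding genes set equal instead, the lower share was 39.2% in MV3. This alternative was chosen after the share of 7SL RNA had been seen. At the same sum of FPKM, all 9 partner mRNAs were called lower in PANC1, at log2 fold changes of -1.63 (SYNCRIP) to -0.63 (YBX1). Taken relative to the median of all genes, SYNCRIP stood at -0.95 under that scaling and at -0.86 in the values as deposited, HNRNPU at -0.54 and -0.44, and DHX9 at -0.47 and -0.37.

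**Figure D1:**
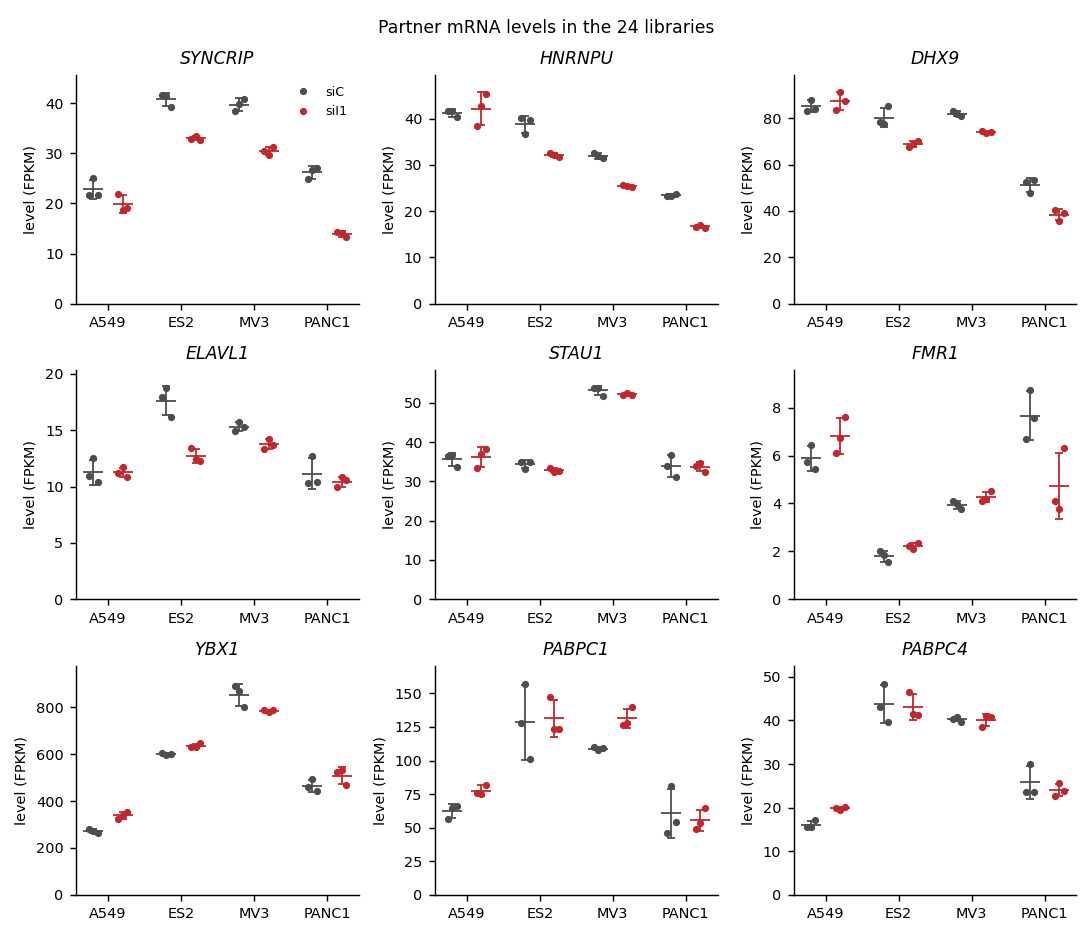
Level of each partner mRNA in FPKM (vertical axes, from 0) in the 24 libraries by cell line, with 1 point per library, siC in grey and siI1 in red; horizontal marks are means and bars are SDs over 3 libraries. For SYNCRIP, HNRNPU and DHX9, the siI1 points lie below all siC points in ES2, MV3 and PANC1, and the arms overlap in A549.

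The genes of the complex that acts on coding-region elements come first. SYNCRIP (hnRNP Q; ENSG00000135316; hg38 chr6:85607779-85644063, minus strand) binds A-rich and AU-rich RNA and travels in neuronal and other mRNP granules. In PANC1 its level was 24.8, 26.7 and 27.1 FPKM in siC and 14.2, 14.2 and 13.2 FPKM in siI1. In MV3 it was 38.4, 39.9 and 40.9 FPKM in siC and 30.4, 29.7 and 31.4 FPKM in siI1. In ES2 it was 41.6, 41.5 and 39.2 FPKM in siC and 32.9, 33.5 and 32.7 FPKM in siI1. In these 3 lines every siI1 library lay below every siC library, and the gap was widest in PANC1. In A549 the level was 21.6, 25.0 and 21.7 FPKM in siC and 21.9, 18.7 and 19.1 FPKM in siI1, and the arms overlapped because the first siI1 library stood above 2 of the siC libraries. The log2 fold change was -0.89 ± 0.06 (SE; adjusted p = 0.000857) in PANC1, -0.38 ± 0.04 (SE; adjusted p = 0.000622) in MV3 and -0.30 ± 0.04 (SE; adjusted p = 0.00413) in ES2. In A549 it was -0.19 ± 0.09 (SE; adjusted p = 0.224), which did not pass the threshold; limma-voom on the recovered reads gave -0.20 with an adjusted p of 0.0401. No library of ES2, MV3 or PANC1 decided the call, with a highest adjusted p of 0.0227 when 1 library was left out.

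HNRNPU (SAF-A; ENSG00000153187; hg38 chr1:244840638-244864560, minus strand) is an abundant nuclear protein that binds RNA and chromatin scaffolds. In PANC1 its level was 23.2, 23.3 and 23.8 FPKM in siC and 16.7, 17.0 and 16.4 FPKM in siI1. In MV3 it was 32.6, 32.0 and 31.4 FPKM in siC and 25.6, 25.4 and 25.3 FPKM in siI1, and in ES2 40.1, 36.7 and 39.6 FPKM in siC and 32.6, 32.1 and 31.8 FPKM in siI1. The arms were apart in all 3 lines. In A549 the level was 41.8, 41.7 and 40.3 FPKM in siC and 38.3, 42.7 and 45.4 FPKM in siI1, so the siI1 libraries lay on both sides of the siC libraries. The log2 fold change was -0.48 ± 0.05 (SE; adjusted p = 0.00187) in PANC1, -0.32 ± 0.03 (SE; adjusted p = 0.000439) in MV3 and -0.27 ± 0.05 (SE; adjusted p = 0.0104) in ES2, against 0.03 ± 0.07 (SE; adjusted p = 0.856) in A549. The ES2 call was lost when all libraries were set to the same sum of FPKM (adjusted p = 0.166). The gene length listed for HNRNPU is 22512 bases, much longer than its mature mRNA, which lowers its FPKM. Whether reads from unspliced RNA entered its level or its fold change was not tested.

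DHX9 (RNA helicase A; ENSG00000135829; hg38 chr1:182839347-182887982, plus strand) unwinds RNA and DNA duplexes and works in transcription, splicing and translation. In PANC1 its level was 52.4, 47.7 and 53.2 FPKM in siC and 40.3, 35.8 and 39.3 FPKM in siI1. In MV3 it was 83.1, 82.0 and 80.9 FPKM in siC and 74.3, 73.5 and 74.2 FPKM in siI1, and in ES2 78.4, 77.3 and 85.1 FPKM in siC and 67.6, 69.0 and 70.3 FPKM in siI1. Again the arms were apart in these lines, with the smallest step in MV3. In A549 the level was 83.3, 88.0 and 84.0 FPKM in siC and 83.7, 91.3 and 87.6 FPKM in siI1, and the arms overlapped. The log2 fold change was -0.41 ± 0.07 (SE; adjusted p = 0.00919) in PANC1, -0.22 ± 0.05 (SE; adjusted p = 0.0237) in ES2, -0.15 ± 0.02 (SE; adjusted p = 0.00495) in MV3 and 0.04 ± 0.05 (SE; adjusted p = 0.665) in A549. The ES2 call was lost without siI1 replicate 1, 2 or 3 (adjusted p = 0.0745, 0.0692 and 0.0613) and at the same sum of FPKM (0.265). The MV3 call was lost at the same sum of FPKM (0.0615) and at the same protein-coding total (0.0665).

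YBX1 (YB-1; ENSG00000065978; hg38 chr1:42682418-42703805, plus strand) is a cold-shock-domain protein that coats cytoplasmic mRNAs. It was the most abundant partner mRNA per length in all 24 libraries, and it made up 49.3% of the summed FPKM of the 9 in A549 siC and 69.4% in MV3 siC. In A549 its level was 280.4, 273 and 264 FPKM in siC and 323, 341 and 355 FPKM in siI1, with all siI1 libraries above all siC libraries. In ES2 it was 605, 597 and 601 FPKM in siC and 633, 633 and 646 FPKM in siI1, again without overlap but with a step of only 6.06% of the mean. In MV3 it was 890.1, 870.5 and 802 FPKM in siC and 787, 782 and 789 FPKM in siI1, where the siI1 libraries lay below the siC libraries and the siC libraries were spread more widely. In PANC1 it was 459, 493 and 444 FPKM in siC and 523, 535 and 469 FPKM in siI1, and the arms overlapped. YBX1 rose in A549, by a log2 fold change of 0.32 ± 0.05 (SE; adjusted p = 0.0135). The value was 0.08 ± 0.04 (SE; adjusted p = 0.178) in ES2, -0.12 ± 0.05 (SE; adjusted p = 0.138) in MV3 and 0.13 ± 0.08 (SE; adjusted p = 0.296) in PANC1, none past the threshold. The PANC1 value turned to -0.63 (adjusted p = 0.00415) at the same sum of FPKM. The A549 call was lost without siC replicate 3 or siI1 replicate 2 (adjusted p = 0.0529 and 0.0596), and an MV3 decrease was called without siC replicate 3 (0.0302) and by limma-voom (0.00793). The tables also list 10 processed pseudogenes of YBX1, whose summed reads were 5.69 to 7.31% of those of YBX1, so a part of its reads may have been assigned to near-identical copies. The copy with the most reads, YBX1P1, was at a log2 fold change of 0.30 in PANC1 (adjusted p = 0.0728), -0.17 in MV3 (0.00458), -0.11 in ES2 (0.305) and 0.42 in A549 (0.0921).

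Since HNRNPU and DHX9 varied together over the libraries while YBX1 did not vary with them (correlations are given further on), their promoters are shown, as the 250 bases before the start site in RefSeq. Capitals mark, on either strand, the GC box GGGCGG, the CCAAT box CCAAT and the NRF1 core GCATGCGC.
HNRNPU promoter, GRCh38.p14 chr1:244864544-244864793, minus strand: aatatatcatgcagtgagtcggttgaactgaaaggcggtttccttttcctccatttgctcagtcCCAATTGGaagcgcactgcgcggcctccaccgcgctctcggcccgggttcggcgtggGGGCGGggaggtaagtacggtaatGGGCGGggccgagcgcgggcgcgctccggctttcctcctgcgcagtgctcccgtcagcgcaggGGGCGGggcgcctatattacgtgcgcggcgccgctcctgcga
DHX9 promoter, GRCh38.p14 chr1:182839097-182839346, plus strand: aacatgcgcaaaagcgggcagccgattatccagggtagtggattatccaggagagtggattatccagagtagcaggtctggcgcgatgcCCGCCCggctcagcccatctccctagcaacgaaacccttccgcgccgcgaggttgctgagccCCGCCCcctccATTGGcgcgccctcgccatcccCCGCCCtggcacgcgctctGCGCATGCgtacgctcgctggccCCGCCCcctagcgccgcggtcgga
YBX1 promoter, GRCh38.p14 chr1:42682168-42682417, plus strand: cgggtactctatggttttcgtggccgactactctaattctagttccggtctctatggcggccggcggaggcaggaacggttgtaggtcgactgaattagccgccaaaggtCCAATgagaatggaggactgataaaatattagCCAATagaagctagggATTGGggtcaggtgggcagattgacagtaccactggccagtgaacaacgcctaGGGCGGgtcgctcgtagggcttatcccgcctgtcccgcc
The HNRNPU window holds 3 GC boxes and 2 CCAAT boxes that overlap on opposite strands, the DHX9 window 4 GC boxes, 1 CCAAT box and 1 NRF1 core, and the YBX1 window 1 GC box and 3 CCAAT boxes. Of 27305 RefSeq windows of this length, 42.3% hold a GC box, 33.0% a CCAAT box and 2.81% an NRF1 core. RefSeq windows of 6 partner genes were available, and each of the 6 holds a GC box. The CCAAT box occurs in these 3, and the NRF1 core in DHX9 and FMR1. The window of SYNCRIP, which varied with HNRNPU and DHX9 as well, holds 1 GC box and no CCAAT box, and its letters are not printed. None of the 6 holds either E2F core searched (TTTCCCGC and TTTGGCGC) or the CRE letters TGACGTCA. In this order, 1.42%, 0.553% and 1.77% of the 27305 windows hold these letters, so their absence from 6 windows carries little information. These matches are descriptions of letters only.

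The binding proteins of AU-rich and structured RNA follow. ELAVL1 (HuR; ENSG00000066044; hg38 chr19:7958573-8005659, minus strand) binds AU-rich and U-rich elements in 3'UTRs and stabilizes the mRNAs that hold them. In ES2 its level was 18.0, 18.7 and 16.2 FPKM in siC and 13.4, 12.4 and 12.3 FPKM in siI1. In MV3 it was 15.0, 15.7 and 15.2 FPKM in siC and 13.3, 14.2 and 13.7 FPKM in siI1. The arms were apart in both lines, by a wider step in ES2. In A549 the level was 10.9, 12.5 and 10.4 FPKM in siC and 11.2, 11.7 and 10.9 FPKM in siI1. In PANC1 it was 10.3, 12.8 and 10.4 FPKM in siC and 9.94, 10.8 and 10.6 FPKM in siI1, where siC replicate 2 alone stood above all other libraries. ELAVL1 fell, with a log2 fold change of -0.46 ± 0.07 (SE; adjusted p = 0.00608) in ES2 and -0.15 ± 0.04 (SE; adjusted p = 0.0233) in MV3. In A549 the value was -0.00 ± 0.09 (SE; adjusted p = 0.995), with a 95% interval of -0.21 to 0.21, and in PANC1 -0.09 ± 0.09 (SE; adjusted p = 0.550). The MV3 call was lost without siC replicate 2, siI1 replicate 1 or siI1 replicate 3 (adjusted p = 0.0826, 0.0645 and 0.0693). It was also lost at the same sum of FPKM or the same protein-coding total (0.0700 and 0.167).

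STAU1 (ENSG00000124214; hg38 chr20:49113339-49188367, minus strand) binds double-stranded RNA and takes part in mRNA transport and in a decay pathway that starts at 3'UTR stems. Its level was 36.4, 36.8 and 33.7 FPKM in siC and 33.4, 37.0 and 38.3 FPKM in siI1 in A549. In ES2 it was 35.0, 33.2 and 34.9 FPKM in siC and 33.4, 32.5 and 32.6 FPKM in siI1. In MV3 it was 53.9, 53.9 and 51.8 FPKM in siC and 52.1, 52.4 and 52.1 FPKM in siI1, the highest of the 4 lines. In PANC1 it was 34.0, 36.7 and 31.2 FPKM in siC and 34.0, 34.7 and 32.5 FPKM in siI1. The arms overlapped in every line. The log2 fold change was -0.01 in PANC1 with a 95% interval of -0.18 to 0.16, -0.03 (-0.09 to 0.04) in MV3, -0.06 (-0.16 to 0.03) in ES2 and 0.02 (-0.14 to 0.19) in A549. STAU1 was thus the partner mRNA with the narrowest range of effects over the lines.

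FMR1 (ENSG00000102081; hg38 chrX:147911919-147951125, plus strand) encodes FMRP, a translational repressor of mRNP granules. It was the least abundant partner mRNA in every line, and the one with the fewest reads. In PANC1 its level was 6.69, 8.76 and 7.57 FPKM in siC and 4.11, 3.77 and 6.32 FPKM in siI1, with siI1 replicate 3 close to the lowest siC library but still below it. In A549 it was 5.75, 6.46 and 5.43 FPKM in siC and 6.13, 6.73 and 7.61 FPKM in siI1, and in MV3 4.10, 3.99 and 3.76 FPKM in siC and 4.10, 4.20 and 4.52 FPKM in siI1, with overlap in both. In ES2 it was 2.01, 1.85 and 1.55 FPKM in siC and 2.24, 2.11 and 2.35 FPKM in siI1, where the siI1 libraries lay above the siC libraries. FMR1 fell in PANC1, with a log2 fold change of -0.67 ± 0.19 (SE; adjusted p = 0.0499), at the edge of the threshold. The values were 0.20 ± 0.11 (SE; adjusted p = 0.320) in A549, 0.25 ± 0.12 (SE; adjusted p = 0.194) in ES2 and 0.10 ± 0.06 (SE; adjusted p = 0.245) in MV3. The PANC1 call was lost without siC replicate 1, 2 or 3 or siI1 replicate 1 or 2, with adjusted p from 0.0882 to 0.146, and under 6 other settings, while without siI1 replicate 3, the library closest to siC, it was -0.87 (adjusted p = 0.0163).

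The cytoplasmic poly(A)-binding proteins PABPC1 (ENSG00000070756) and PABPC4 (ENSG00000090621; hg38 chr1:39560709-39576790, minus strand) coat the poly(A) tail and link it to translation initiation. In A549 PABPC1 stood at 56.1, 64.8 and 66.3 FPKM in siC and 76.0, 74.9 and 82.0 FPKM in siI1. PABPC4 stood at 15.5, 15.6 and 17.1 FPKM in siC and 19.8, 19.5 and 20.2 FPKM in siI1 there. For both mRNAs all siI1 libraries of A549 lay above all siC libraries. In MV3 PABPC1 was at 109.9, 108 and 109 FPKM in siC and 126, 128 and 139.7 FPKM in siI1, also without overlap. PABPC4 in MV3 was at 40.4, 40.7 and 39.7 FPKM in siC and 38.5, 41.0 and 40.8 FPKM in siI1, with overlap. PABPC1 rose by a log2 fold change of 0.32 ± 0.08 (SE; adjusted p = 0.0445) in A549 and 0.27 ± 0.04 (SE; adjusted p = 0.00463) in MV3. PABPC4 rose in A549 by 0.30 ± 0.06 (SE; adjusted p = 0.0263), and was at -0.01 ± 0.03 (SE; adjusted p = 0.892) in MV3. The ratio of PABPC1 to PABPC4, which does not depend on the scaling, went from 2.71 ± 0.0534 to 3.28 ± 0.152 in MV3 (SD, n = 3 each; no overlap), and was 3.89 ± 0.272 and 3.91 ± 0.120 in A549, with overlap. The A549 call of PABPC1 was lost with any 1 of the 6 libraries left out, with adjusted p from 0.0690 (without siC replicate 3) to 0.130 (without siI1 replicate 3). The A549 call of PABPC1 was also lost at the same sum of FPKM (0.0730), with no filter on low values (0.0672), with no trend (0.118) and with the replicate block (0.0760). The A549 call of PABPC4 was lost without siC replicate 1 or 2 or any siI1 replicate, with adjusted p up to 0.0824 (without siC replicate 1). The MV3 call of PABPC1 held without each library, with adjusted p up to 0.0234.

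In ES2 and PANC1 the same mRNAs varied mainly within arms. PABPC1 in ES2 was at 128, 157 and 101 FPKM in siC and 147, 123 and 124 FPKM in siI1. In PANC1 it was at 46.3, 81.4 and 54.6 FPKM in siC and 49.1, 53.3 and 64.3 FPKM in siI1. PABPC4 was at 43.2, 48.4 and 39.6 FPKM in siC and 46.5, 41.4 and 41.1 FPKM in siI1 in ES2. In PANC1 it was at 23.6, 30.1 and 23.7 FPKM in siC and 22.8, 25.6 and 23.9 FPKM in siI1. In both lines siC replicate 2 held the highest level of both mRNAs, and this library also had the highest share of 7SL RNA among the siC libraries of its line, 6.25% in ES2 and 15.4% in PANC1. The coefficient of variation of PABPC1 over the siC libraries was 30.2% in PANC1 and 21.8% in ES2, against 1.01% in MV3. The log2 fold change of PABPC1 was 0.05 in ES2, with a 95% interval of -0.35 to 0.45, and -0.10 in PANC1, with -0.61 to 0.42, so a change of the size seen in A549 was not excluded by the ES2 and PANC1 data. Without siC replicate 2 the value was 0.20 in ES2 and 0.13 in PANC1, with adjusted p of 0.357 and 0.523. For PABPC4 the values were -0.02 (-0.23 to 0.19) in ES2 and -0.09 (-0.35 to 0.17) in PANC1. Of 11 PABPC1 pseudogenes listed, 5 were at 0 in all libraries, and the summed reads of the 11 reached at most 0.735% of those of PABPC1.

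**Figure D2:**
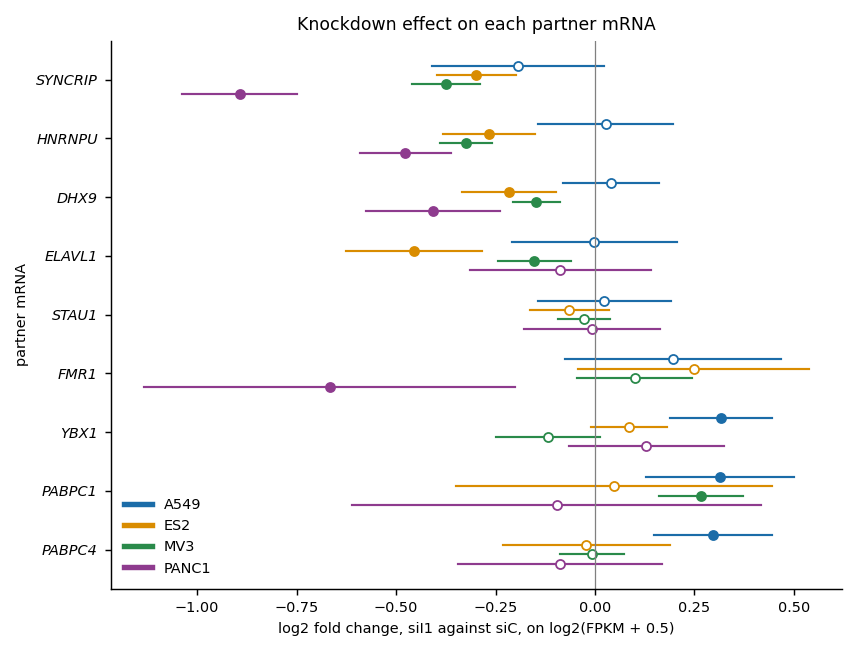
Log2 fold change of each partner mRNA (vertical axis) for siI1 against siC on log2(FPKM + 0.5) (horizontal axis) in 4 cell lines, with 95% intervals as lines; filled points passed an adjusted p of 0.05. SYNCRIP runs from -0.89 in PANC1 to -0.19 in A549, and the STAU1 intervals include 0 in all 4 lines.

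Whether an effect differed between lines was tested directly, in 1 limma fit over all 24 libraries with an F test of the line-by-knockdown term over 12816 genes, of which 45% passed. Of the 9 partner mRNAs, 7 passed. The adjusted p was 1.18e-05 for SYNCRIP, 6.15e-05 for HNRNPU, 0.000454 for DHX9 and 0.00110 for YBX1. It was 0.00194 for FMR1, 0.00972 for ELAVL1 and 0.0407 for PABPC4. SYNCRIP, HNRNPU and DHX9 had their lowest value in PANC1 and their highest in A549. PABPC1 (0.370) and STAU1 (0.774) did not pass, and PABPC1 had the widest intervals of the 9 in ES2. The PABPC4 call was lost with any of 15 single libraries left out, with adjusted p up to 0.101 (without A549 siC replicate 1), and with separate weights for the lines (0.0811). The line is not the only thing that differs, since PANC1 was harvested at 96 h and the others at 72 h, and IGF2BP1 itself was lowered to different degrees (adjusted p of its difference 9.77e-05); these cannot be told apart from the line.

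Within a library, ratios between partners need no scaling. The ratio of SYNCRIP to STAU1 was 0.775 ± 0.0814 in siC and 0.411 ± 0.00553 in siI1 in PANC1, 0.747 ± 0.0382 and 0.585 ± 0.0176 in MV3, and 1.19 ± 0.0621 and 1.01 ± 0.0243 in ES2 (SD, n = 3 each). The arms did not overlap in these lines. In A549 the ratio was 0.640 ± 0.0434 and 0.553 ± 0.0880, with overlap. The ratios of HNRNPU and of DHX9 to STAU1 were likewise apart in ES2, MV3 and PANC1 and overlapped in A549. With YBX1, which rose in A549, as denominator, the A549 arms of SYNCRIP were apart (0.0837 ± 0.00739 in siC, 0.0588 ± 0.00774 in siI1). Shares of the summed FPKM of the 9, mostly YBX1, were also apart in A549. SYNCRIP went from 4.12 to 3.11%, HNRNPU from 7.46 to 6.57%, DHX9 from 15.4 to 13.7% and STAU1 from 6.44 to 5.65%. The A549 reading thus depends on the denominator. For HNRNPU the ratio went from 0.694 ± 0.0643 to 0.496 ± 0.00879 in PANC1; for DHX9 it went from 1.54 ± 0.0200 to 1.42 ± 0.0132 in MV3.

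Per length, the partners differ widely in level, and their order in siC was described over the lines. YBX1 ran from 272 FPKM in A549 to 854 in MV3, a 3.14-fold range in which no neighbours overlapped. FMR1 ran from 1.80 FPKM in ES2 to 7.67 in PANC1, 4.25-fold, also without overlap. PABPC4 ran from 16.1 FPKM in A549 to 43.7 in ES2 and PABPC1 from 60.7 in PANC1 to 129 in ES2, and ES2 and MV3 overlapped for both. SYNCRIP was highest in ES2 (40.8 FPKM) and MV3 (39.7), which overlapped, and lower in PANC1 (26.2) and A549 (22.8), which overlapped as well. HNRNPU ran from 41.3 FPKM in A549 down to 23.4 in PANC1, with all neighbours apart in the values as deposited, whereas A549 and ES2 overlapped once all 24 libraries were rescaled together. DHX9 was lowest in PANC1 (51.1 FPKM) and between 80.3 and 85.1 in the other lines. STAU1 was highest in MV3 (53.2 FPKM) and ELAVL1 in ES2 (17.6). For STAU1 the other lines lay between 34.0 and 35.6 FPKM, and for ELAVL1 MV3 (15.3) stood between ES2 and the overlapping A549 (11.3) and PANC1 (11.2). The A549 line, with the highest IGF2BP1 level, thus held the lowest YBX1, PABPC4 and SYNCRIP means but the highest HNRNPU and DHX9 means.

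Set against IGF2BP1 itself, the partners stood low in A549. IGF2BP1 was at 39.7 FPKM in A549 siC and at 9.26 to 13.1 in the other lines. The ratio of SYNCRIP to IGF2BP1 was 0.574 ± 0.0480 in A549 siC, against 2.35 ± 0.127 in PANC1, 3.12 ± 0.138 in ES2 and 4.29 ± 0.193 in MV3 (SD, n = 3 each). For PABPC4 it was 0.404 ± 0.0238 in A549 and 4.35 ± 0.113 in MV3, and for YBX1 6.85 ± 0.199 and 92.3 ± 5.00. The knockdown moved all 9 ratios up in all 4 lines without overlap, a step that the fall of their common denominator gives by itself. In A549 siI1 the SYNCRIP ratio, 1.27 ± 0.149, was below that of the siC libraries of the other 3 lines. The HNRNPU ratio, 2.70 ± 0.249, and the DHX9 ratio, 5.60 ± 0.131, were instead above those of all PANC1 siC libraries.

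**Figure D3:**
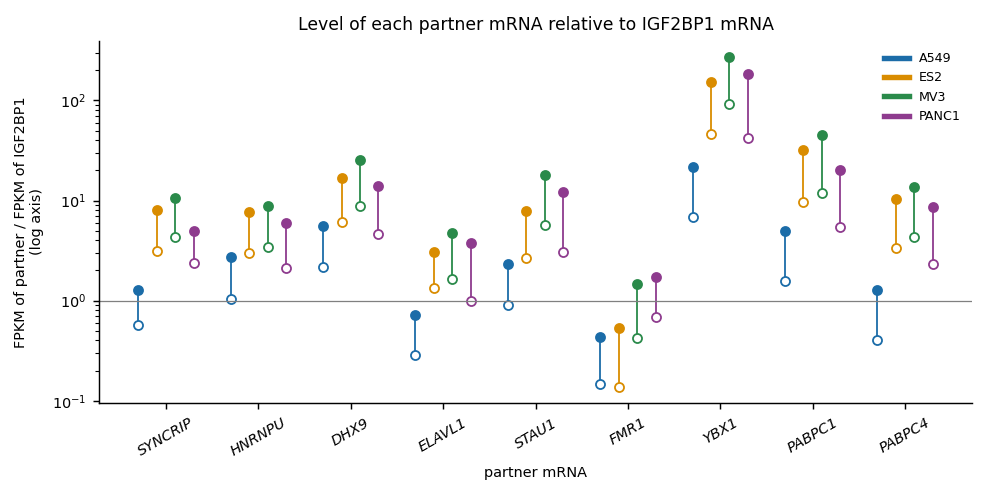
Ratio of each partner mRNA to IGF2BP1 mRNA in FPKM (vertical axis, log scale; the grey line marks 1) for siC (open points) and siI1 (filled points) by cell line, as means of 3 libraries. A549 has the lowest siC ratio of every partner except FMR1, and every ratio is higher in siI1.

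The partners were also compared with each other over the 24 libraries, after the mean of each line had been taken off log2(FPKM + 0.5). The points share the knockdown arms and the scaling of their line, so the values are descriptions. HNRNPU and DHX9 had a Pearson's r of 0.90, HNRNPU and SYNCRIP 0.87, and SYNCRIP and DHX9 0.84. PABPC1 and PABPC4 had 0.81, and no other pair reached 0.6. SYNCRIP and YBX1 stood at -0.36. Among about 4920 protein-coding genes with at least 5 FPKM in every line, those most like SYNCRIP were PPP4R3B (r = 0.96) and SMC4 (0.94), and those most like HNRNPU were PSMD14 (0.96) and NCAPG (0.96). SMC4 and NCAPG are subunits of condensin, which compacts chromosomes in mitosis. GFM1 (0.93) and MTDH (0.92) were most like DHX9, and YRDC (0.87) was among those most like ELAVL1. PPA1 (0.89) and the ribosomal protein gene RPL7 (0.88) were most like YBX1, SKP1 (0.90) and FTH1 (0.89) most like PABPC1, and PABPC1 itself (0.81) and GPI (0.79) most like PABPC4. STAU1 had the weakest likenesses, with SNRNP25 (0.74) and PELO (0.73), and FMR1 was most like VPS54 (0.86) and CAST (0.85).

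**Figure D4:**
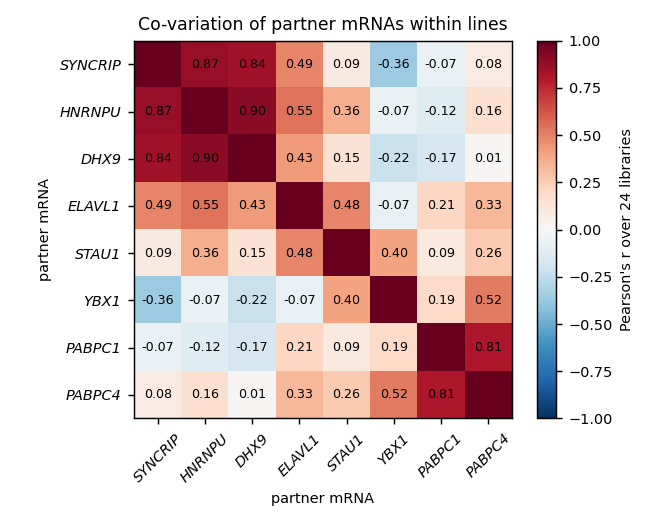
Pearson's r between partner mRNAs (both axes) over 24 libraries, computed on log2(FPKM + 0.5) after removal of the mean of each line; FMR1, below 5 FPKM in some lines, is left out. SYNCRIP, HNRNPU and DHX9 form one block (0.84 to 0.90) and PABPC1 and PABPC4 another (0.81).

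The 3'UTRs of the partners, taken from GENCODE 44, range from 427 nt (PABPC4) and 548 nt (DHX9) to 4153 nt (HNRNPU), 4910 nt (ELAVL1) and 5103 nt (SYNCRIP), with a median of 1535 nt over 9587 genes tested in all lines. The 3 mRNAs lower in ES2, MV3 and PANC1 thus include 1 short and 2 long 3'UTRs. Tetramers reported as IGF2BP1 motifs (CATA, CATC or CATT in DNA letters) occurred 14.6 times per kb in DHX9, 15.3 in SYNCRIP and 17.6 in HNRNPU. They occurred 11.6 times per kb in ELAVL1, 16.3 in FMR1, 14.0 in YBX1, 11.5 in PABPC1 and 4.68 in PABPC4, against a median of 11.7 per kb. The YBX1 3'UTR used has 1856 nt, beside a listed length of 1930 bases for the whole gene. It may thus reach beyond the annotation on which the reads were counted. STAU1, which passed in no line, had 14.3 per kb. The AU-rich pentamer ATTTA occurred 15 times in SYNCRIP, 13 times in ELAVL1, 11 times in HNRNPU and not once in the annotated DHX9 3'UTR. Such short words occur often by their length alone, and no binding was measured here.

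Of the other IGF2BP family members, IGF2BP2 was higher in PANC1 (log2 fold change 0.23 ± 0.06 (SE; adjusted p = 0.0302)) and did not pass in the other lines, where it was between 0.10 and 0.16 in the values as deposited. It was called higher in ES2 at the same sum of FPKM (adjusted p = 0.0308), the same protein-coding total (0.0356) and the median ratio (0.0461). The median ratio scaled libraries by the median ratio of protein-coding genes to their geometric mean. In MV3 IGF2BP2 was called higher at the protein-coding total and the median ratio (0.0119 and 0.0459). At the same sum of FPKM the PANC1 value of IGF2BP2 turned to -0.51 (adjusted p = 0.0262). IGF2BP3 was higher in ES2 (0.27 ± 0.07 (SE; adjusted p = 0.0419)) and lower in MV3 (-0.14 ± 0.04 (SE; adjusted p = 0.0370)). Both calls were lost at the same sum of FPKM (adjusted p = 0.0777 and 0.210), and that in MV3 also at the same protein-coding total (0.370) and the median ratio (0.0976).

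Related genes were read as 4 lists, set beside all genes tested, which include genes of lower level. Of genes called at a mean of at least 5 FPKM, 65.5% were lower in MV3, 60.8% in ES2, 55.0% in A549 and 52.0% in PANC1. Of all genes called, the lower share was 54.5%, 55.4%, 56.9% and 54.3% in this order. Among 13 or 14 tested paralogs of the partners, 4 were lower in PANC1 (30.8%, beside 13.4% of all genes tested), 6 in MV3 (46.2%, beside 19.5%), 4 in ES2 (28.6%, beside 13%) and 2 in A549 (15.4%, beside 7.83%). This count came to 2 in ES2 without siI1 replicate 3 and to 3 in MV3 without siC replicate 1. Of the paralogs, 0 were higher in any line in the values as deposited. Beside this, 11.3% of all genes tested were higher in PANC1, 16.3% in MV3, 10.5% in ES2 and 5.93% in A549. PABPC1L in MV3 was called higher at the same protein-coding total (0.36, adjusted p = 0.0401) and by limma-voom (0.33, 0.00720). The median log2 fold change of the paralogs in the same order of lines was -0.13, -0.13, -0.07 and -0.06. HNRNPUL1, a paralog of HNRNPU, was lower in all 4 lines, including A549, where HNRNPU itself did not change past the threshold. Its log2 fold change was -0.63 ± 0.05 (SE; adjusted p = 0.00131) in A549 and -0.30 ± 0.05 (SE; adjusted p = 0.00578) in MV3. FXR2, a paralog of FMR1, fell, at -0.60 ± 0.12 (SE; adjusted p = 0.0143) in ES2, and the helicase DHX36 fell, at -0.75 ± 0.13 (SE; adjusted p = 0.0103) in PANC1.

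Of 20 or 21 tested genes of poly(A) tail metabolism and PABP cofactors, 1 was lower and 2 higher in A549, 4 and 1 in ES2, 8 and 5 in MV3, and 6 and 0 in PANC1. In this order of the lines, the lower share was 4.76%, 19.0%, 40% and 30%, beside 7.83%, 13%, 19.5% and 13.4% of all genes tested, and the higher share 9.52%, 4.76%, 25.0% and 0%, beside 5.93%, 10.5%, 16.3% and 11.3%. With 1 library left out, the lower count in ES2 came to 1 (without siC replicate 2, siI1 replicate 2 or siI1 replicate 3) and the higher count in A549 to 0 (without siC replicate 3 or siI1 replicate 2) or 1 (without siC replicate 2, siI1 replicate 1 or siI1 replicate 3), and the higher count in MV3 to 3 (without any siC replicate or siI1 replicate 1). Their median was 0.04 in A549, where PABPC1 and PABPC4 rose, and -0.09, -0.04 and -0.16 in ES2, MV3 and PANC1. CNOT1, the scaffold of the CCR4-NOT deadenylase, fell, at -0.40 ± 0.06 (SE; adjusted p = 0.00816) in A549. The antiproliferative cofactor BTG2 rose there by 0.43 ± 0.08 (SE; adjusted p = 0.0195), a call lost at the same sum of FPKM (adjusted p = 0.0660). LARP1, which binds PABPC1 and the mRNAs of the translation machinery, fell, at -0.37 ± 0.04 (SE; adjusted p = 0.00133) in MV3, where TOB1 rose by 0.61 ± 0.09 (SE; adjusted p = 0.00262). In ES2 the largest fall was that of TOB2 (-0.56 ± 0.07 (SE; adjusted p = 0.00367)). The nuclear poly(A)-binding protein gene PABPN1 fell, at -0.69 ± 0.06 (SE; adjusted p = 0.00144) in PANC1.

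Of 22 or 23 tested genes of stress granules and RNA transport granules, 7 were lower and 1 higher in A549 and in ES2, 11 and 4 in MV3, and 4 and 2 in PANC1, with medians of -0.10, -0.09, -0.15 and -0.10. In this order of the lines, the lower share was 30.4%, 30.4%, 50% and 18.2%, beside 7.83%, 13%, 19.5% and 13.4% of all genes tested, and the higher share 4.35%, 4.35%, 18.2% and 9.09%, beside 5.93%, 10.5%, 16.3% and 11.3%. With 1 library left out, the lower count was 1 (without siC replicate 3) to 5 (without siI1 replicate 3) in A549 and 2 (without siC replicate 1, siI1 replicate 2 or siI1 replicate 3) to 5 (without siI1 replicate 1) in ES2, and the higher count was 0 to 1 in ES2 and 0 to 2 in PANC1. G3BP2, a stress granule nucleator, was lower in all 4 lines, at log2 fold changes of -0.32 in PANC1, -0.29 in MV3, -0.32 in ES2 and -0.39 in A549 (adjusted p = 0.00474, 0.000561, 0.00915 and 0.00682). PURB, a nucleic-acid-binding protein of transport granules, was also lower in all 4, most in A549 (-0.56 ± 0.14 (SE; adjusted p = 0.0449)). At the same sum of FPKM the ES2 calls of G3BP2 (adjusted p = 0.0922) and PURB (0.337) were lost. At the median ratio so were those of PURB in A549 (0.0543) and ES2 (0.0834). The largest falls elsewhere were those of CYFIP2, a partner of FMRP, in ES2 (-0.81 ± 0.19 (SE; adjusted p = 0.0256)), NCL (nucleolin) in MV3 (-0.45 ± 0.04 (SE; adjusted p = 0.000380)) and the motor protein gene KIF5B in PANC1 (-0.57 ± 0.06 (SE; adjusted p = 0.00241)). The largest rises were those of KIF3A in A549 (0.48 ± 0.08 (SE; adjusted p = 0.0122)), MOV10 in ES2 (0.29 ± 0.06 (SE; adjusted p = 0.0213)) and PURA in MV3 (0.33 ± 0.05 (SE; adjusted p = 0.00391)).

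Of 14 or 15 tested AU-rich element binding proteins, 4 were lower and 0 higher in A549, 2 and 2 in ES2, 6 and 1 in MV3, and 6 and 1 in PANC1, with medians of -0.07, -0.09, -0.07 and -0.20. The lower share in these lines was 26.7%, 14.3%, 40% and 40%, beside 7.83%, 13%, 19.5% and 13.4% of all genes tested, so that in ES2 it was near the background. The higher share was 0%, 14.3%, 6.67% and 6.67%, beside 5.93%, 10.5%, 16.3% and 11.3%. Without siI1 replicate 1 the lower count in PANC1 was 3, and with single libraries left out the higher count was 1 to 2 in ES2 and 0 to 2 in PANC1. HNRNPAB was lower in all 4 lines, at -0.20 in PANC1, -0.47 in MV3, -0.40 in ES2 and -0.19 in A549 (adjusted p = 0.0312, 0.000734, 0.00131 and 0.0329), with the PANC1 call lost at the median ratio (0.0662). KHSRP, a decay-promoting KH-domain protein, was the largest fall of the list in ES2 (-0.48 ± 0.05 (SE; adjusted p = 0.00183)) and MV3 (-0.57 ± 0.03 (SE; adjusted p = 0.000190)), and was also lower in A549 (-0.40, adjusted p = 0.00844). HNRNPA0 was the largest fall in A549 (-0.74 ± 0.12 (SE; adjusted p = 0.0104)) and PANC1 (-0.84 ± 0.12 (SE; adjusted p = 0.00498)), and was also lower in MV3 (-0.43, adjusted p = 0.0196). TIA1, a stress granule protein, rose in ES2 (0.43 ± 0.07 (SE; adjusted p = 0.00699)) and MV3 (0.34 ± 0.06 (SE; adjusted p = 0.00684)), and ZFP36L2 in PANC1 (0.28 ± 0.06 (SE; adjusted p = 0.0237)). At the same sum of FPKM, 0 genes of the 4 lists were higher and 68 lower in PANC1, and ZFP36L2 and the other rises there turned negative.

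**Figure D5:**
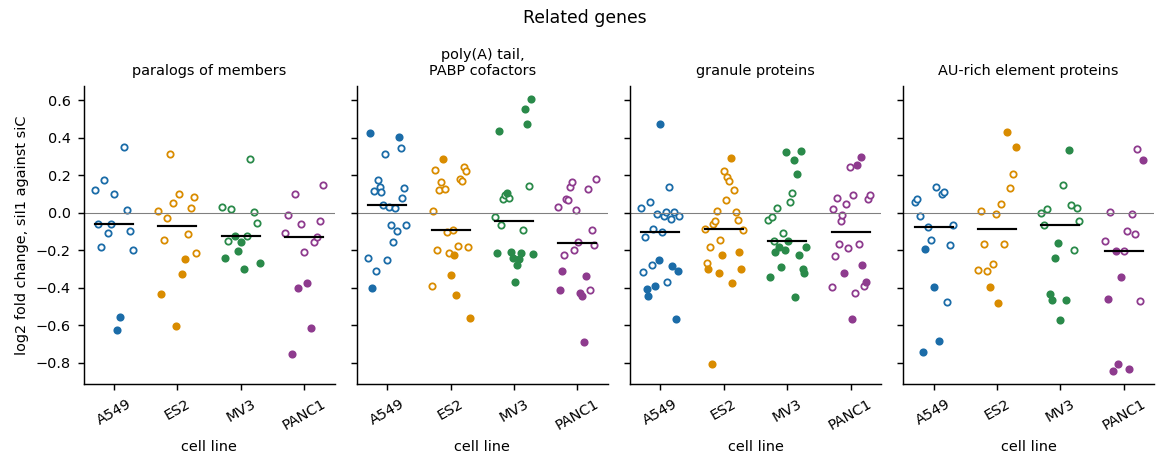
Log2 fold change, siI1 against siC (vertical axis), of the tested genes of 4 related lists by cell line (horizontal axis); each point is 1 gene, filled points passed an adjusted p of 0.05, and black bars are medians. No paralog of a partner is filled above 0, beside 5.93% (A549) to 16.3% (MV3) of all genes tested called higher. The list medians lie below 0 in every line except for poly(A) tail genes in A549.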

How the data were processed

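Total RNA libraries of 4 cell lines were analyzed, 3 siC and 3 siI1 libraries per line, described by the authors as biological replicates. Groups and replicate numbers were taken from the label of each library. According to the labels and the published methods, the authors depleted ribosomal RNA, made strand-marking libraries, clipped reads with cutadapt (1.14), aligned them to hg38 with HISAT2 (2.1.0), counted them per gene with featureCounts (1.5.3) on an Ensembl annotation and tested them with edgeR (3.30.3). The authors deposited FPKM values, 1 table per line. The unit was worked out from the values, since each value times the listed length was a whole number of reads in 100% of cases within a tolerance of 0.01. A length column in bases and columns of the authors' own comparison (log2 fold change, p-value and FDR) were also deposited; the comparison was not used. All 37 mitochondrial genes were listed at 0.

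The partner mRNAs and the gene lists were chosen with earlier results of these data known. Values were analyzed as log2(FPKM + 0.5), which understates changes of low genes. Genes that averaged 0.5 FPKM or more in a line were tested with limma (3.58.1, R 4.3.3; intensity trend, two-sided, Benjamini-Hochberg) per line, and differences between lines with a joint F test over genes passing in all lines. The p-values measure the spread between 3 libraries per group. Replicates differed by more than sampling noise in all 24 pairs (chi-square per gene 1.54 to 15.1). Genes of the related lists were named by a rule: the largest fall and rise past the threshold per list and line at an average of 1 FPKM or more, and those lower in all 4 lines; a few genes that these rules name are not reported here. Alternatives were other pseudocounts and filters, rescalings, limma-voom on recovered reads, no trend, a replicate block and omission of each library. The scripts were tested on simulated data. Positions and 3'UTRs (the longest annotated) come from GENCODE 44 and promoters from RefSeq (GRCh38.p14). Tables and plots were made in Python 3.11.15 (pandas 2.3.3, numpy 2.4.6, matplotlib 3.10.9, scipy 1.17.1).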

Additional observations from a re-analysis of the deposited data

Results flagged for a closer look

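The effect of the knockdown differed between the 4 lines, by the joint limma F test adjusted over 12816 genes, for 7 partner mRNAs and for 2 members of the IGF2BP family. The adjusted p was 1.18e-05 for SYNCRIP, whose log2 fold change ran from -0.89 in PANC1 to -0.19 in A549, and 6.15e-05 for HNRNPU, from -0.48 in PANC1 to 0.03 in A549. It was 0.000454 for DHX9, from -0.41 in PANC1 to 0.04 in A549, and 0.00110 for YBX1, from -0.12 in MV3 to 0.32 in A549. For FMR1 it was 0.00194, from -0.67 in PANC1 to 0.25 in ES2, for ELAVL1 0.00972, from -0.46 in ES2 to near 0 in A549, and for PABPC4 0.0407, from -0.09 in PANC1 to 0.30 in A549. IGF2BP1 itself differed (9.77e-05), from -1.83 in PANC1 to -1.32 in A549, and so did IGF2BP3 (0.00256), from -0.14 in MV3 to 0.27 in ES2. Since 45% of all genes passed this test, a difference between lines was common.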

How the results depend on the processing

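Of 36 log2 fold changes (9 partners in 4 lines), alternatives that kept all libraries gave the same direction and side of the threshold in 313 cases, lost a call in 23, gained a call in 6 and turned the sign in 16; no change of sign under these alternatives concerned a value that had passed as deposited. At the same sum of FPKM the values were -0.0072 (HNRNPU, A549), -0.011 (STAU1, A549), 0.049 (PABPC4, ES2), 0.0056 (STAU1, ES2) and -0.63 (YBX1, PANC1). At the same protein-coding total they were 0.024 (ELAVL1, A549), 0.013 (PABPC4, ES2), 0.074 (PABPC4, MV3), 0.054 (STAU1, MV3) and 0.0061 (STAU1, PANC1). At the median ratio they were 0.037 (ELAVL1, A549), 0.014 (PABPC4, ES2), 0.022 (PABPC4, MV3), 0.0017 (STAU1, MV3) and 0.037 (STAU1, PANC1), and limma-voom gave 0.0053 for ELAVL1 in A549. With 1 library left out, signs turned within -0.054 to 0.074 (ELAVL1), -0.029 to 0.093 (HNRNPU) and -0.017 to 0.080 (STAU1) in A549, -0.11 to 0.20 (PABPC1) and -0.089 to 0.054 (PABPC4) in ES2, -0.024 to 0.022 (PABPC4) in MV3, and -0.14 to 0.0090 (ELAVL1), -0.27 to 0.13 (PABPC1), -0.15 to 0.026 (PABPC4) and -0.067 to 0.049 (STAU1) in PANC1.

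Counts of partner mRNAs moved as follows. In A549, 3 higher became 0 with no trend and 0 with the replicate block, and 0 to 1 with 1 library left out, and 0 lower became 1 with limma-voom. The 4 lower became 2 at the same sum of FPKM in ES2 and MV3. They became 2 at the same protein-coding total in MV3, and 9 at the same sum of FPKM in PANC1. Counts of the related lists moved in A549 from 14 lower to 8 with no trend, 4 with the block and 7 to 11 with 1 library left out, and from 3 higher to 5 with limma-voom, 1 with no trend, 0 with the block and 1 to 3 with 1 library left out. In ES2, 17 lower became 9 at the same sum of FPKM, 11 with no trend, 10 with the block and 7 to 15 with 1 library left out, and 4 higher became 2 to 3. In PANC1, 20 lower became 68 and 3 higher 0 at the same sum of FPKM. The 3 higher became 5 with limma-voom, 1 with no trend, 1 with the block and 0 to 5 with 1 library left out. The causes were not tested. The number of partners whose effect differed between lines stayed at 6 to 9 in all alternatives.

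Replicate numbers did not pair the libraries: the deviations of same-numbered libraries had correlations of -0.122 to 0.12. With the replicate block, the calls of YBX1, PABPC1 and PABPC4 in A549, DHX9 in ES2 and FMR1 in PANC1 were lost; all genes called went from 2533 to 1001 in A549, 3973 to 2612 in ES2, 5853 to 4705 in MV3 and 3927 to 2987 in PANC1, and it changed no other call of a partner mRNA. Genes called over the whole table were 4176 in A549 by limma-voom and 8939 in PANC1 at the same sum of FPKM. Depth limits A549 most, since a given FPKM rests on the fewest reads there. The order of siC levels changed for STAU1, with 4 of 6 pairs of lines kept under each of the rescaling over all libraries and the ranks within a library, and for ELAVL1, YBX1, DHX9 and PABPC1 in 1 pair under at least 1 of them.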
